A study of Mus musculus with 2 samples.

Results

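Cluster 0 is a group of secretory cells of the mouse colon epithelium, and it held 482 of the 3082 cells, or 15.6%. Its members are the cells that the authors placed in the first of their 12 clusters, as given by 1 column of mean expression in their deposited table of 17044 genes. Colon epithelium of wild-type C57BL/6 mice gave 2 libraries of single cells 2 weeks after irradiation, in a study whose title concerns radiation injury of the rectum and transplanted colonoids. Colonoids are organoids grown from colon crypts. Both libraries belong to 1 group, the deposited columns pool them, and unirradiated samples were not analysed here. Graft origin is in none of the labels. All levels below are mean UMIs per 10000 UMIs of a cell, averaged over the cells of a cluster, on a linear scale. A UMI is a molecular tag that counts 1 captured RNA molecule. Levels of different genes are set side by side as UMIs, with no scaling by transcript length.

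Goblet cells are the mucus-secreting cells of the gut. They make the gel-forming mucin MUC2 in the endoplasmic reticulum, load it with O-linked sugars in the Golgi, and store it in granules until release. Deep crypt secretory cells lie at the base of colonic crypts between the stem cells, express Reg4, and are regarded as the colonic counterpart of Paneth cells of the small intestine. Both belong to the secretory lineage that the transcription factor ATOH1 opens and Notch signalling restrains.

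The markers were given with the cluster, so their levels describe the label and do not check it. All 7 markers given with the cluster (Muc2, Zg16, Tff3, Fcgbp, Spink4, Mptx1 and Reg4) had their highest level in cluster 0, where they summed to 1044 per 10000, or 10.4% of the RNA. Their sum in the other 11 clusters ran from 5.84 in cluster 8 to 52.9 in cluster 6. The clusters were drawn from these same expression values, so each contrast below describes the cluster and is no test of it, and no p-value or standard error was computed. Intervals are exact Poisson 95% intervals on the approximate number of UMIs behind a mean. They cover counting error only, and neither the spread between cells nor that between animals. A mean also cannot show whether goblet and deep crypt secretory genes were in the same cells.

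The promoters of the mucin Muc2, the mucus protein Fcgbp, the deep crypt secretory gene Reg4 and the pentraxin Mptx1 are shown as those of 4 marker genes, with short motifs in capitals. They are RefSeq windows of GRCm38.p6, running from 250 bases before to 50 after a start site, 5′ to 3′ on the gene's strand, which is the plus strand for all 4. That site is the first base of the annotated gene for Muc2, Fcgbp and Mptx1. For Reg4 it is base 98222156, which lies 18 bases inside the annotated gene. Zg16, Tff3 and Spink4 did not match an entry. The capitals mark CAGCTG, an E-box of the type bound by basic helix-loop-helix factors such as ATOH1, in Muc2 and Fcgbp, and TATAAA in Muc2 and Mptx1. In Reg4 they mark ACGTGG and the forkhead motifs TGTTTAC or TGTTTGC. All were searched on both strands, and CAGCTG reads the same on each.
Muc2, chr7:141690090-141690389: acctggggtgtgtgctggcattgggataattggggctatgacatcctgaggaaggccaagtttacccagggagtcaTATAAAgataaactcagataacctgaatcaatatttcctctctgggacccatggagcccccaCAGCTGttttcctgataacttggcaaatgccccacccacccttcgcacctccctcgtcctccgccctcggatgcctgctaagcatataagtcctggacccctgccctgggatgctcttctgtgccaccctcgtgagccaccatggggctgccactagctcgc
Fcgbp, chr7:28070986-28071285: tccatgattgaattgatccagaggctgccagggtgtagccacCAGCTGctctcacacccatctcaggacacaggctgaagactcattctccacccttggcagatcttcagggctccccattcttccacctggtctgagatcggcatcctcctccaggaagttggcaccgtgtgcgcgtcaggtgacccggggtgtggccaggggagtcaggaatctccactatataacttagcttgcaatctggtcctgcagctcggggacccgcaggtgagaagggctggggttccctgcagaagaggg
Mptx1, chr1:174330268-174330567: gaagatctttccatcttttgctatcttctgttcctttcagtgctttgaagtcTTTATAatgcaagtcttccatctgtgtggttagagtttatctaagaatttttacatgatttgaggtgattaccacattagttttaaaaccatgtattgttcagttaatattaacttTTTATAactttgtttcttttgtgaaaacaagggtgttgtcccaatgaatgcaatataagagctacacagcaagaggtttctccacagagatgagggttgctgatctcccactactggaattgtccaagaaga
Reg4, chr3:98221906-98222205: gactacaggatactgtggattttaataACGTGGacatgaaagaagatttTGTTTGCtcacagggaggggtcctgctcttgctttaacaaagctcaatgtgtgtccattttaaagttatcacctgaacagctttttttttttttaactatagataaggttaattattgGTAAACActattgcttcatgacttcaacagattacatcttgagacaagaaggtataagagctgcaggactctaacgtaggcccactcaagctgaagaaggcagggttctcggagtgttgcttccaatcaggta
The E-box began 112 bases before the start of Muc2 and 208 before that of Fcgbp. The Muc2 window also held TATAAA 174 bases before the start, and the Mptx1 window held it on the opposite strand at 198 and 82. The Reg4 forkhead matches began 201 and 83 bases before its start site, the nearer on the opposite strand, and ACGTGG began at 223.

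Zg16, a lectin of the mucus layer that binds bacteria (RefSeq GRCm38.p6, chr7:127050156-127052675), had the largest fold over the next cluster of all tested genes, once a pseudocount of 0.1 was added to both levels. It averaged 157.6 per 10000 in cluster 0 (95% interval 156.5 to 158.8). In the other 11 clusters it ranged from 0.231 in cluster 11 through a median of 1.30 to 2.24 in cluster 5. Before any pseudocount, cluster 0 stood 70.4-fold above cluster 5, and no other cluster overlapped it.

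Muc2 (chr7:141690340-141754691) averaged 79.2 in cluster 0 (78.4 to 80.04), against 0.421 in cluster 9, a median of 0.968 and 5.55 in cluster 6, the highest of the others. Fcgbp (chr7:28071236-28120864), a large protein of the mucus gel, averaged 48.3 against at most 2.21, also in cluster 6. The trefoil peptide Tff3 (chr17:31125306-31129611), which goblet cells secrete with mucin, was at 218 in cluster 0. Its next levels were 16.2 in cluster 11 and 15.8 in cluster 6, and its lowest was 1.37 in cluster 8. Spink4, a secreted protein of the Kazal inhibitor family, had the highest level of any gene in cluster 0 outside the ribosomal protein and mitochondrial genes, at 287 (285 to 288.1). It reached 18.1 in cluster 6 and 14.6 in cluster 11. For none of these 5 genes did the interval in cluster 0 reach that in the next cluster.

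Of the deep crypt secretory markers, Mptx1 was at 207 in cluster 0 and ranged elsewhere from 0.357 in cluster 11 through a median of 1.15 to 7.57 in cluster 6. Mptx1 (chr1:174330518-174332877) encodes a secreted pentraxin. Reg4 (chr3:98222138-98236748), a secreted lectin-like protein, averaged 47.9 (47.3 to 48.6) in cluster 0. It was the marker with the smallest gap: cluster 11 had 11.6 (10.1 to 13.3), and the median of the other clusters was 0.468. Reg4 is also known as a gene of enteroendocrine cells, and 18 of the 18 enteroendocrine markers with a mean of at least 0.1 per 10000 were highest in cluster 11.

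**Figure D1:**
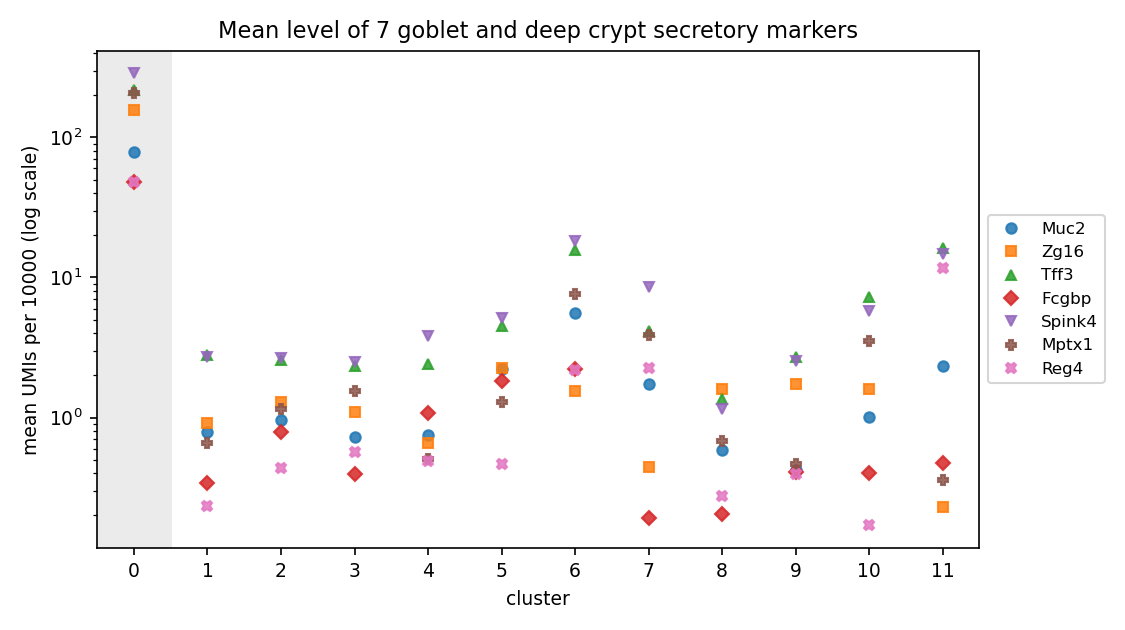
Mean level (UMIs per 10000, log scale) of 7 goblet and deep crypt secretory markers in each of the 12 clusters, 1 symbol per gene and no error bars. All 7 lie highest in cluster 0 (shaded), between 47.9 and 287, and Reg4 in cluster 11, at 11.6, comes closest among its own values elsewhere.

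None of the 7 markers was at 0 in any cluster, and their levels elsewhere were not 1 fixed share of those in cluster 0. In cluster 6 the levels were 7.01% of the cluster 0 level for Muc2, 7.24% for Tff3 and 6.32% for Spink4, but 0.989% for Zg16. In cluster 8, where absorptive markers summed highest, they ran from 0.328% for Mptx1 to 1.01% for Zg16. Cluster 6 was shallow, with a median of 2498.5 UMIs in the cells whose total could be read, against 16195 in cluster 0 and 6557 in cluster 8. The share of free RNA, doublets or secretory cells in these levels was not tested.

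Of the 8068 genes with a mean of at least 0.1 per 10000 over the 12 clusters, 69 (0.855%) led cluster 0, the 7 markers among them. A leading gene had at least 1 per 10000 in cluster 0 and at least 2-fold the level of the highest other cluster, after adding a pseudocount of 0.1 to both. These 69 genes summed to 1633 per 10000, or 16.3% of the RNA of cluster 0, and to at most 1.16% elsewhere, in cluster 6. The 62 outside the marker set made up 5.89% of the RNA of cluster 0 and at most 0.641% elsewhere, in cluster 3. The highest other cluster was cluster 6 for 20 of the 69 genes and cluster 11 for 17. The matching shares of all tested genes are not given here, so these counts only describe the 69. Just inside the 2-fold limit lay Tm9sf2 (3.56 against 1.73) and Smim6 (9.82 against 4.84), and just outside lay Asph (1.08 against 0.499) and Smco4 (1.03 against 0.477).

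**Figure D2:**
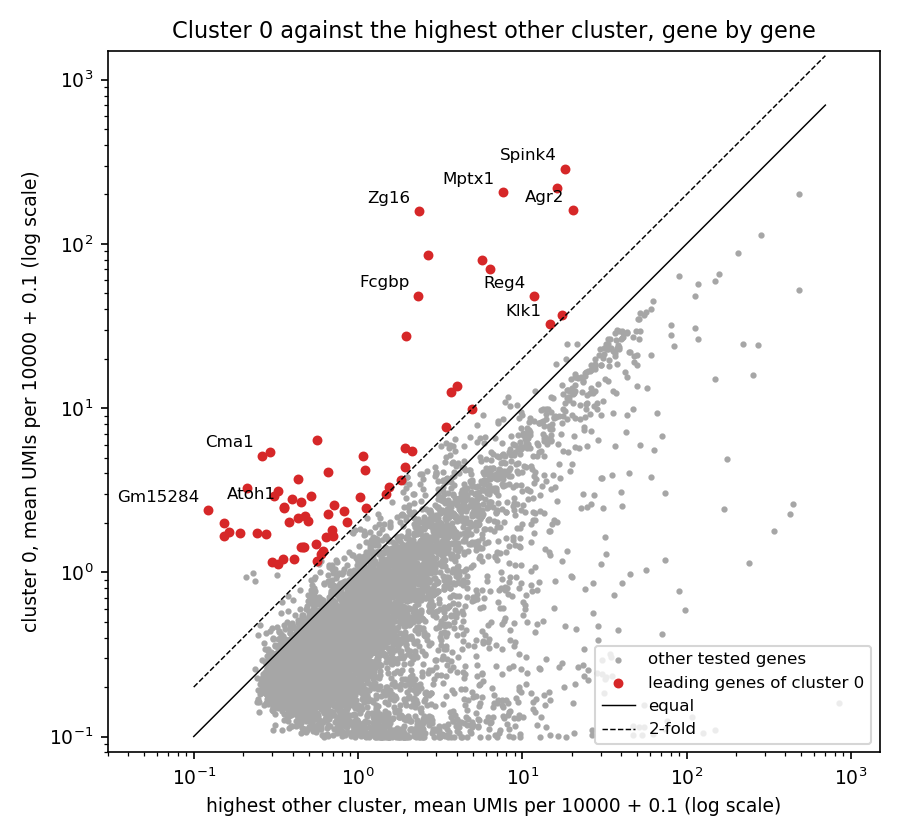
Each point is 1 of the 8068 tested genes, with the highest level among the other 11 clusters on the x axis and the level in cluster 0 on the y axis (UMIs per 10000 plus 0.1, both log scales). The 69 leading genes (red) lie above the dashed 2-fold line, with Zg16 at 157.6 against 2.24 farthest from it.

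Sval1, Clca1, Retnlb, Spink1 and Agr2 were among the first 25 genes of this ranking. Sval1, a seminal vesicle antigen-like secreted protein, was at 85.1 in cluster 0 (84.2 to 85.9). Elsewhere it ranged from 0.262 in cluster 8 through a median of 0.726 to 2.58 in cluster 10. Clca1, a secreted protein that processes the mucus gel, was at 27.5 against 1.86 in cluster 6 and a median of 0.186. The resistin-like protein Retnlb, an antibacterial goblet cell product, averaged 3.62 against at most 0.331. Spink1, a trypsin inhibitor, stood at 70.1 against 6.23 in cluster 6. Agr2, the protein disulfide isomerase that mucin folding requires, was at 161 in cluster 0. It was less restricted than the mucus proteins, with 20.2 in cluster 7, then 18.6 in cluster 11 and 13.6 in cluster 2, and its lowest level was 0.969 in cluster 8.

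Genes of lower level in the same ranking were also low in the 11 other clusters. Rep15, which binds the small GTPase RAB15, was at 6.31 against at most 0.460 in cluster 11. Best2, a bestrophin anion channel known from colonic goblet cells, was at 3.02. Its median over the other 11 clusters was 0.0198 and its highest level there 0.227. Tpsg1, a membrane-bound tryptase, was at 2.83 against 0.207, and Pla2g2a, a gene of the secreted phospholipase family, at 2.41 against 0.254. Meg3, a long noncoding RNA, was at 1.64 against 0.0901. Nov, a matricellular protein of the CCN family, was at 1.67 against 0.0643. The others among the 25 with the largest folds were Slc12a8, Hpd, Gm1123 and 9030619P08Rik, at 1.56 to 3.18 in cluster 0.

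Of the list of 25 goblet cell products, 22 were in the table and 18 passed the mean of 0.1. Of these, 17 were highest in cluster 0 (5.26% of all tested genes were) and 17 had at least 2-fold the mean level of the 11 others (3.40% of all tested genes). The median log2 fold of the list was 4.28, beside -0.18 over all tested genes. The exception was Fam213a at 0.0960 in cluster 0 and 0.786 in cluster 11. A low gene could pass the filter through cluster 0 alone, so these counts describe the lists and support nothing. Each list count below against all 11 other clusters stands beside the same shares of all tested genes. These are 5.26% highest in cluster 0, 3.40% at least 2-fold up and 11.3% at least 2-fold down. Among members under the filter, the gastric genes Muc5ac and Tff2 were at 0.00987 and 0.00480 in cluster 0, and Itln1, an intelectin, at 0.212. Klk1, a tissue kallikrein, was at 32.4 in cluster 0 but also at 14.6 in cluster 3 and 13.7 in cluster 8.

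Of the 16 deep crypt secretory genes, 15 were in the table, 10 passed the filter and 7 were both highest in cluster 0 and at least 2-fold up. This list shares Spink4, Agr2, Ang4 and Retnlb with the goblet list. The growth factor receptor gene Kit and the Notch ligand genes Dll4 and Dll1, which mark the niche function of these cells, fell under the filter. Kit was at 0.336 in cluster 0 and 0.249 in cluster 10, where its interval of 0.0851 to 0.566 spans the value in cluster 0. Dll4 was at 0.536 (0.471 to 0.607) against 0.227 (0.110 to 0.412) in cluster 6, and Dll1 at 0.334 (0.283 to 0.391) against 0.134 (0.0499 to 0.289). Egf was at 0.171, and the Paneth cell ligand gene Wnt3 was at 0 in cluster 0, where 3 UMIs correspond to 0.00650. Cd44 was 2-fold or more below the mean of the others, at 0.159 against 9.72 in cluster 5. Its log2 fold was -2.39, but -0.51 without clusters 5 and 10, in which immune genes were highest, so the call ended there. The surface marker Cd24a was at 6.75 in cluster 0 and 9.94 in cluster 5.

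Paneth cell genes were present in cluster 0 at low to moderate levels. The ribonuclease Ang4, an antibacterial protein, was at 5.33 (5.12 to 5.55) against at most 0.190 in cluster 7, and was at 0 in cluster 10. The alpha-defensin gene Defa24 was at 1.90 and the defensin-family gene Gm15284 at 2.3. Gm15284 was at 0.0225 in cluster 1, the next highest. Reads of alpha-defensins can be split between near-identical copies, so the levels of single defensins are uncertain. Lysozyme 1, Lyz1, was at 0.842 against 0.109 in cluster 2, and colipase, Clps, at 3.99 against 0.559 in cluster 6. All 6 Paneth markers that passed the filter, of 10 in the table and 16 listed, were highest in cluster 0, with a list median of 4.22. Over all tested genes 5.26% were highest there. Ang4, Defa24 and Gm15284 averaged 0.0471, 0.0149 and 0.0061 over the other clusters, and Lyz1 also averaged under 0.1 there. All of these passed the filter through cluster 0 alone. The count therefore describes the list and supports nothing. Nupr1, a stress-response gene, was the member nearest to another cluster, at 19.8 against 18.4 in cluster 2. Mmp7, which activates defensins, was under the filter at 0.283.

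Antimicrobial genes divided. Of 18 that passed the filter, 7 exceeded the mean of the other clusters at least 2-fold and 8 lay at least 2-fold below it. For all tested genes the share below was 11.3%. Mptx1, Zg16, Ang4, Retnlb, Pla2g2a, Defa24 and Lyz1 formed the upper group. On the lower side stood Lypd8, which keeps flagellated bacteria from the epithelium, at 52.5 in cluster 0 and 485 in cluster 4. Lypd8 still ranked among the 15 highest genes of cluster 0, and the median of the other clusters was 57.5. Saa1, a serum amyloid A gene, was at 2.33 against 168 in cluster 8. The lectins Reg3b and Reg3g were at 0.00196 and 0.0166 in cluster 0 and at most 0.606 and 0.879 elsewhere, both in cluster 7. Slpi, a secreted protease inhibitor, was in neither group. It was at 13.2 in cluster 0, above the median of 1.65 over the other clusters and below the 57.3 of cluster 5. Its log2 fold over their mean was 0.71, and 2.14 without clusters 5 and 10.

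Wfdc2, a secreted protein with a whey acidic domain, was lower in cluster 0 than in any other epithelial cluster. It averaged 2.41 (2.27 to 2.56) in cluster 0. All 9 other epithelial clusters had more, from 6.57 in cluster 4 to 24.6 in cluster 3. Lower levels were found in cluster 5 (1.22) and cluster 10 (0.663), in which immune genes were highest. By the same measure, the fold under the lowest other epithelial cluster, the butyrate transporter Slc5a8 and the aldo-keto reductase Akr1c19 lay lowest of the genes with a mean of at least 1. Slc5a8 was at 0.0837 in cluster 0 and at 0.466 to 2.67 in the other epithelial clusters, and Akr1c19 was at 0.147 against a lowest of 0.661. The next were Tm4sf20, Atp2b1, Sdc1, Lgals3bp, Tes, Endod1 and Gpx4. Gpx4, the enzyme that reduces lipid peroxides, was at 2.51 in cluster 0 and at 4.35 or more in the other epithelial clusters.

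Some transcription factors of the secretory lineage followed the products, but their list as a whole did not. Of 23 that passed the filter, 7 were highest in cluster 0, 8 at least 2-fold up and 4 at least 2-fold down. The median log2 fold was 0.31, beside -0.18 over all tested genes. Atoh1 was at 2.37 (2.24 to 2.52) in cluster 0. In the other clusters it ranged from 0.00722 in cluster 4 through a median of 0.0874 to 0.255 (0.0755 to 0.627) in cluster 11. Spdef, which drives goblet and Paneth cell maturation, was at 2.58 against a median of 0.0376 and at most 0.348 in cluster 6. Creb3l4, an endoplasmic reticulum-anchored factor, was at 1.62 against at most 0.176 in cluster 11. Foxa3, a forkhead factor of goblet cells, was at 2.46 against 0.616 in cluster 7. These 4 were the leading genes among the 23 listed factors that passed the filter. Before any pseudocount, Spdef lay 7.42-fold above the next cluster and Foxa3 3.99-fold.

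The remaining factors were shared more widely. Xbp1, the factor of the unfolded protein response, was at 3.87 (3.69 to 4.05) in cluster 0 and 2.3 (1.64 to 3.13) in cluster 11. Creb3l1 was at 2.91 against 2.05 in cluster 6, and Foxa2 at 0.655 against 0.599 in cluster 11. Hes6, an inhibitor of Hes1, was at 3.28 in cluster 0 and 3.74 (2.89 to 4.77) in cluster 11. Cluster 0 thus did not have the highest mean, but that interval spans its value. Gfi1 and Bhlha15 (Mist1), factors of secretory cells, were under the filter at 0.102 and 0.0965, from an approximate 47 and 45 UMIs. Klf4 (5.93), Elf3 (5.71), Klf5 (3.90), Cdx1 (3.34), Ehf (1.15), Sox9 (0.735) and Foxa1 (0.420), from the same list, were all higher in some other cluster. So were Hoxb13 (3.92) and Cdx2 (0.387). Those at least 2-fold below the mean of the others were Hnf4a, a factor of absorptive cells, at 0.626 against 3.66 in cluster 8, Sox4 at 0.119, Nkx2-2 at 0.0126 and Insm1 at 0. The last 3 were highest in cluster 11.

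**Figure D3:**
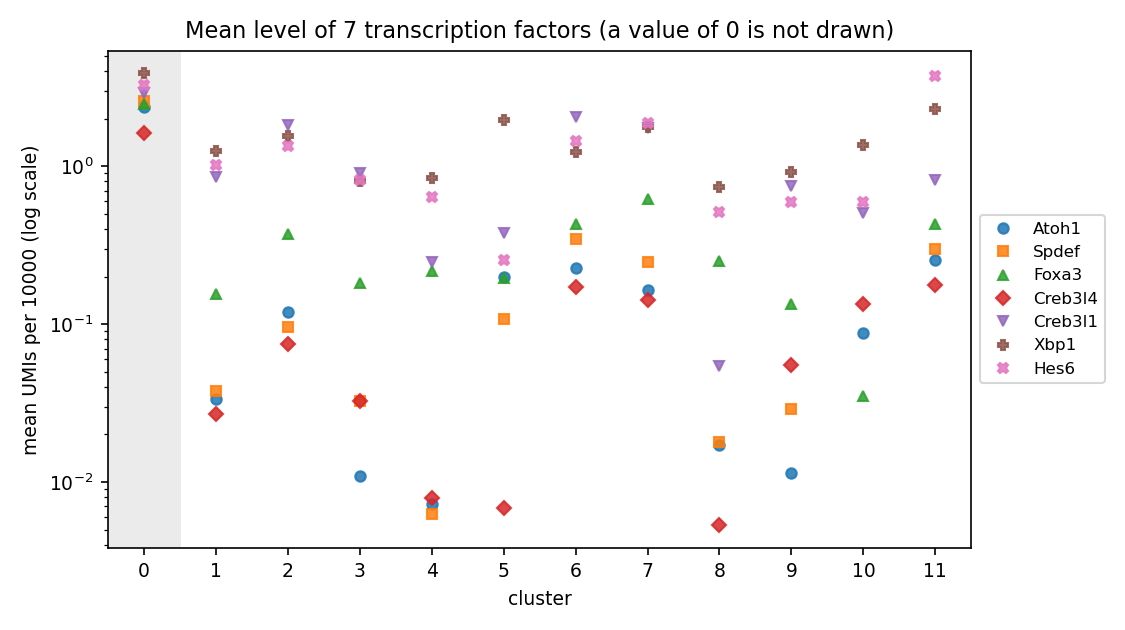
Mean level (UMIs per 10000, log scale) of 7 transcription factors in the 12 clusters, 1 symbol per gene, with values of 0 not drawn and no error bars. Atoh1, Spdef, Foxa3 and Creb3l4 lie at 1.62 to 2.58 in cluster 0 and at most 0.616 elsewhere. The mean of Hes6 is higher in cluster 11, where its interval spans the value in cluster 0.

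Of the Notch pathway, 18 of 20 listed genes were in the table and 8 passed the filter, with a median log2 fold of -0.33. Hes6 was the one at least 2-fold up and the receptor gene Notch1 the one at least 2-fold down, at 0.0139 against 0.485 in cluster 5. Against the other epithelial clusters alone, where 3.05% of all tested genes were up and 8.47% down, 2 were up, Hes6 and Lfng, and none down. Lfng, which modifies Notch receptors, then had a log2 fold of 1.63 (0.80 against all 11), and Notch1 one of -0.71. Hes1, the Notch target that represses Atoh1, averaged 1.54 here and was highest in cluster 2 at 3.90.

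The machinery that folds secreted proteins was higher in cluster 0 for most of its genes, by modest folds. Of 31 endoplasmic reticulum folding genes, 29 passed the filter, 17 were highest in cluster 0, 15 were at least 2-fold up and none was 2-fold down. Their median log2 fold was 1.0. Agr2 alone supplied 161 of their summed 251 per 10000. Without it cluster 0 summed to 90.2, cluster 11 to 67.1 and cluster 7 to 55.7, and the lowest sum was 19.2 in cluster 5. The sharpest members were enzymes of disulfide bonds and prolyl isomerisation. The sulfhydryl oxidase Qsox1 was at 4.98 against 0.978 in cluster 4, and Pdia5 at 2.16 against 0.554 in cluster 7. Txndc5 was at 5.63 against 1.82 and Fkbp11, a prolyl isomerase, at 1.92 against 0.280.

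General chaperones were higher in the 19 cells of cluster 11 than in cluster 0 for part of the list. Hspa5 (BiP) was at 9.72 (9.44 to 10.01) in cluster 0 and 13.3 (11.7 to 15.2) in cluster 11. Hsp90b1 was at 4.67 against 5.53, a gap within the counting error of cluster 11. Calr, a lectin chaperone, was at 10.8 in cluster 0 and at most 7.70 elsewhere. Against cluster 11 alone, 9 of the 29 folding genes were at least 2-fold higher in cluster 0, beside 10.5% of all tested genes, and the median log2 fold was 0.45.

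Stress sensors and degradation factors were less distinct. Of 22 listed, 18 passed the filter, 10 were highest in cluster 0 and 7 at least 2-fold up, with a median of 0.90. Their sum was 29.2 in cluster 0 and 28.1 in cluster 11. Ern2 (IRE1 beta), the sensor of mucus-secreting epithelia, was at 2.38 against 1.01 in cluster 6. Its relative Ern1 was under the filter at 0.0975. Herpud1 was at 4.07 and Atf4 at 3.88, against 4.64 and 2.88 in cluster 11.

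The endoplasmic reticulum stress element of 8 folding and degradation genes is shown because this motif, CCAAT and CCACG separated by 9 bases, is the known landing site of NF-Y and ATF6 at folding genes. It was searched on both strands of the RefSeq windows and is printed on the strand that reads CCAAT first, with those 10 bases in capitals.
Hspa5, chr2:34772025-34772043: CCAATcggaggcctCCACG
Hsp90b1, chr10:86705638-86705656: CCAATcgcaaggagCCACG
Hsp90b1, chr10:86705533-86705551: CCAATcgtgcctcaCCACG
Calr, chr8:84847075-84847093: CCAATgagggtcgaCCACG
Canx, chr11:50325800-50325818: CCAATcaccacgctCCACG
Pdia6, chr12:17266491-17266509: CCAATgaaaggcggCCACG
Dnajc3, chr14:118937827-118937845: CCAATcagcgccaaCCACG
Creld2, chr15:88819520-88819538: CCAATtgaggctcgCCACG
Syvn1, chr19:6046532-6046550: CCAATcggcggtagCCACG
These 9 matches lie in 8 genes, of 37 folding, stress and degradation genes with a window (21.6%). Of all 6221 tested genes with a window, 11 held it (0.177%). The other 3 genes were Hnrnpa3, Pan2 and Spats2l. Within the 37 genes, those with the motif had a median log2 fold of 0.93 in cluster 0 and the other 29 one of 1.0.

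None of the 40 leading genes with a window held this element. CAGCTG was in 8 of the 40 and in 13.9% of all 6221 windows. The 8 genes were Muc2, Fcgbp, Sval1, Gm1123, Pdia5, Chst4, Hgfac and Oit1. ACGTGG was in 7 of the 40 and in 11.9% of all windows. A forkhead motif (TGTTTAC or TGTTTGC as above, or else TATTTAC) was in 6 of the 40 and in 7.59% of all, and TATAAA in 4 of the 40 and in 7.84% of all. ACGTGG can overlap the stress element where its CCACG is followed by T. It stood in 24 of 54 genes (44.4%) of the translocon, oligosaccharyl transferase and vesicle transport lists. Those 24 had a median log2 fold of 0.72 and the other 30 one of 0.74. A match is a string of letters and shows no binding.

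Genes for entry into the secretory route were modestly higher in cluster 0. Of 23 translocon and signal peptidase genes, all passed the filter, 11 were highest in cluster 0, 9 were at least 2-fold up and none 2-fold down, with a median of 0.82. Sec61b, a subunit of the channel, was at 11.5 against 8.11 in cluster 10, and Ssr4, of the translocon-associated complex, at 9.0 against 5.70 in cluster 7. Of the 12 oligosaccharyl transferase genes, which attach N-linked sugars, 8 were highest in cluster 0 and 5 at least 2-fold up. Ostc was at 4.03 against 2.53 and Ddost at 5.63 against 3.46, both in cluster 7. Of the 36 tested genes of transport between endoplasmic reticulum and Golgi, 21 were highest in cluster 0 and 10 at least 2-fold up. Kdelr3, a receptor that returns resident proteins, was the one leading gene, at 1.11 against 0.307 in cluster 11. Kdelr2 was at 3.72 against 1.88, and Lman1, a cargo lectin, at 1.01 against 0.568.

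**Figure D4:**
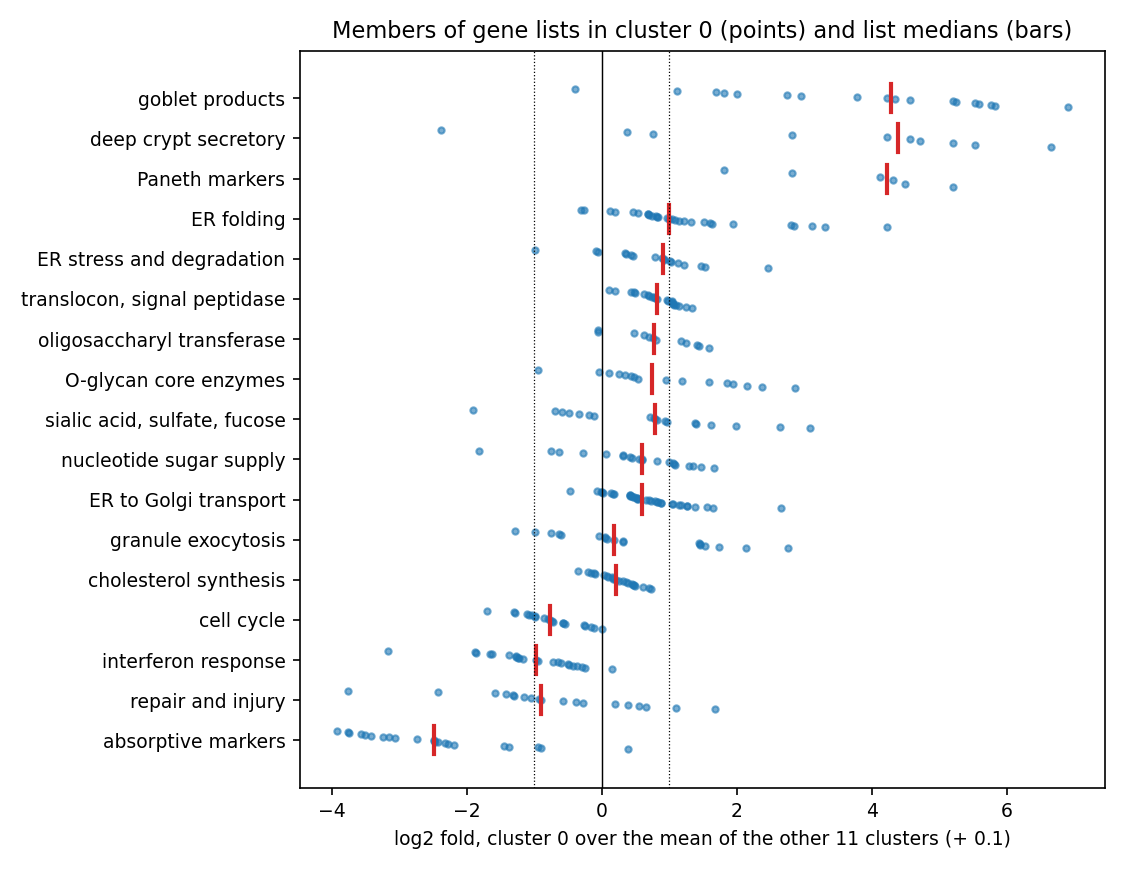
Log2 fold of cluster 0 over the mean of the other 11 clusters (x axis, pseudocount 0.1), 1 point per gene that passed the filter, in 17 gene lists, with red bars at list medians and dotted lines at 2-fold. Goblet, deep crypt secretory and Paneth lists have medians of 4.28, 4.39 and 4.22, the folding list 1.0 and absorptive markers -2.48.

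Mucin O-glycosylation genes were mixed. Of 19 core enzymes in the table, 16 passed the filter, and 7 were both highest in cluster 0 and at least 2-fold up. The median was 0.75. The initiating transferases Galnt12 (2.78 against 0.923 in cluster 4), Galnt7 (2.26 against 0.723) and Galnt10 (1.54 against 0.537) led cluster 0. So did Gcnt3, which builds branched cores, at 1.70 against 0.590, and C1galt1c1, the chaperone of core 1 synthase, at 1.33 against 0.367. B3gnt7, which extends chains, was at 2.41 but reached 2.94 in cluster 3. B3gnt6, the core 3 synthase, was under the filter at 0.0666. B4galt1 was at 0.289 against 2.54 in cluster 8.

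For terminal sugars and sulfate, 11 of 19 tested genes were highest in cluster 0 and 6 at least 2-fold up, with a median of 0.79. The sialyltransferases St3gal6 (3.72 against 1.88) and St6gal1 (1.10 against 0.250), the sulfotransferase Chst4 (1.33 against 0.361) and the fucosyltransferase Fut2 (1.57 against 0.600) were among them. Slc26a2, which imports sulfate, was on the lower side, at 0.789 in cluster 0 and 15.8 in cluster 8. The summed list was 29.9 in cluster 8 and 26.7 in cluster 0. Of 21 tested genes that supply nucleotide sugars, 8 were at least 2-fold up. They included Nans (10.1), for sialic acid, and the pair Gmds (6.51) and Tsta3 (4.27), for GDP-fucose. Against the other epithelial clusters alone 4 were up, beside 3.05% of all tested genes. The log2 folds of Nans and Gmds were then 0.87 and 0.83, under the 2-fold limit, and that of Tsta3 was 1.48. Ugdh, which makes UDP-glucuronate, was at 0.324 against 4.24 in cluster 9.

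**Figure D5:**
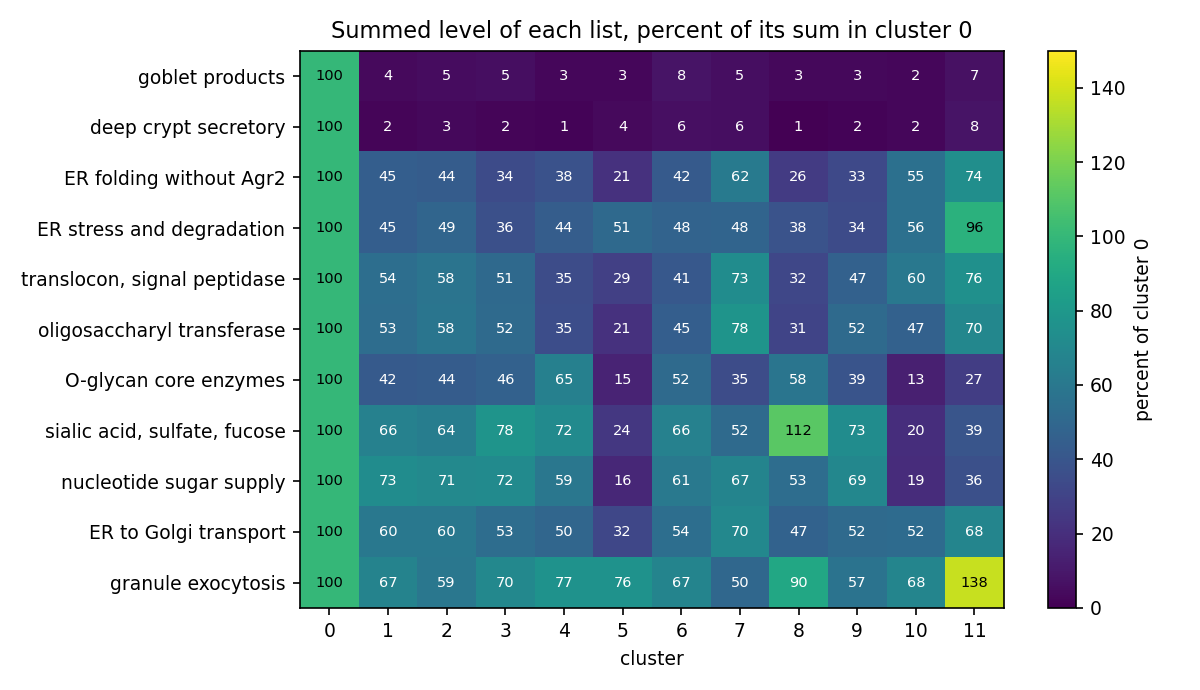
Summed level of 11 gene lists in each cluster (columns), as a percent of the same sum in cluster 0, with folding genes counted without Agr2. Goblet products reach at most 7.90% elsewhere (cluster 6), whereas terminal sugar genes reach 112% in cluster 8 and exocytosis genes 138% in cluster 11.

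Exocytosis genes did not set cluster 0 apart as a list. Of 19 that passed the filter, 4 were highest in cluster 0, 7 at least 2-fold up and 1 at least 2-fold down. Against cluster 11 alone, 3 were at least 2-fold up and 6 at least 2-fold down. The same shares of all tested genes were 10.5% and 15.3%. The sum was 16.9 in cluster 0 and 23.3 in cluster 11. Sytl2, a granule-docking protein, led cluster 0 at 1.38 against 0.458. Rab3d, a GTPase of secretory granules, was at 2.15 against 1.72, and the actin-severing Scin at 1.59 against 0.994. Vamp8, a SNARE of mucin granules, was at 3.30 in cluster 0 and 9.04 in cluster 8. Syt7 was higher in cluster 11.

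Ion transport genes went both ways, with a median log2 fold of -0.0035. Of 16 tested, 5 were at least 2-fold up and 6 at least 2-fold down. Best2, Clca1 and the calcium and manganese pump of the Golgi, Atp2c2 (4.08 against 0.998), led cluster 0. The chloride-loading cotransporter Slc12a2 was at 1.97 and thus below the 2.18 of cluster 6. The absorptive exchanger Slc26a3 and water channel Aqp8 were at 0.108 and 0.173, against 20.7 and 23.3 in cluster 8. Cftr was at 0.0594 against 0.701 in cluster 9.

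Absorptive colonocyte markers were low beside the clusters where they summed highest. The 26 listed genes summed to 82.9 in cluster 0 and to between 281 and 899 in clusters 1, 3, 4, 8 and 9. The sums in clusters 2, 6, 7 and 11 were 92.8, 90.3, 59.1 and 27.7, so cluster 0 was not the lowest epithelial cluster. The median log2 fold of the list was -2.48 over the mean of the others and -0.92 over their median. Of 22 that passed the filter, 19 were at least 2-fold below the mean of the other clusters, and none was highest in cluster 0. Against the other 9 epithelial clusters alone 21 were below, beside 8.47% of all tested genes. Car1 was at 1.09 against 74.4 in cluster 8, Muc3 at 0.872 against 45.0 and Krt20 at 0.684 against 12.2 in cluster 4. Of the repair and injury list, 19 passed the filter, of which 8 were at least 2-fold down and 2 up. Clu was at 0.242 against 23.6 in cluster 4 and S100a11 at 5.49 against 63.5 in cluster 5. Without clusters 5 and 10 the log2 fold of S100a11 was -0.59, short of 2-fold. Cyr61, a YAP target, was at 3.59 in cluster 0 and 3.34 in cluster 2. S100a6 was at 65.8, and at 158 in cluster 4.

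Cell cycle transcripts in cluster 0 were in the middle of the range over the clusters. The 26 listed genes summed to 10.03 here, and elsewhere to between 3.39 (cluster 8) and 69.9 (cluster 7). Mki67 was at 0.0687 and Top2a at 0.0580, against 1.47 and 1.42 in cluster 7. Of 21 tested, 6 were at least 2-fold down and none up. Of 9 tested stem cell markers, 1 was at least 2-fold up, the cotransporter gene Slc12a2, and 3 were down. The stem cell receptor gene Lgr5 was at 0.00541 in cluster 0, below the value of 3 UMIs, and reached 0.117 in cluster 6. None of the 23 tested interferon genes was 2-fold up and 11 were 2-fold down, including B2m at 2.99 against 39.6 in cluster 10 and Isg15 at 0.159. Against the other epithelial clusters alone 6 were down, B2m and Isg15 among them, beside 8.47% of all tested genes. Of the p53 targets, 2 of 17 tested were up, Plk2 (1.06) and Trp53inp1 (0.693), and 2 were down, Gdf15 (0.202) and Fas (0.0703). Over all tested genes 3.40% were up and 11.3% down, so the count down was near that share. Without clusters 5 and 10 the log2 folds of Gdf15 and Fas were -0.96 and -0.38, and neither call held. Cdkn1a was at 4.22, against 6.52 in cluster 8. Of 23 cholesterol synthesis genes none was 2-fold up or down. Since no unirradiated cells entered these folds, a response common to the 12 clusters has no contrast here.

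Markers of other cell types were mostly at or near 0. The 21 enteroendocrine markers summed to 0.188 in cluster 0, within a range of 0.153 in cluster 2 to 1354 in cluster 11, and 7 of them were at 0, among them Neurod1, Scg2 and Fev. Tuft markers without Cd24a were at 0.0466 or less, with Dclk1 and Trpm5 at 0. The 12 neutrophil markers summed to 6.10, with 1.28 in cluster 9 as the lowest sum and 1166 in cluster 5 as the highest, and S100a9 was at 2.50. The 15 macrophage and dendritic markers summed to 1.85 (0.662 in cluster 9 to 592 in cluster 10), with Adgre1 and C1qc at 0. T and natural killer cell markers summed to 0.0314 and B and plasma cell markers to 0.143. Of the T cell genes, Cd3e, Cd3g and Trac were at 0, and the value of Cd3d equalled 1 UMI or a few in 1 identified cell. The 7 stromal and endothelial markers in the table summed to 0.0511.

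Cma1, mast cell chymase 1 (chr14:55941451-55944675), was the fifth of the 69 leading genes, at 5.04 (4.84 to 5.25). In the other clusters it ranged from 0 in cluster 11 through a median of 0.0198 to 0.161 in cluster 10. Of the other mast cell genes, Cpa3, Fcer1a, Ms4a2 and Gata2 were at 0 in cluster 0, Mcpt1 was at 0.00533 and Mcpt2 at 0.00396. Hdc, which makes histamine, was at 0.133, and Kit, also on the deep crypt secretory list, at 0.336. In cluster 10, Mcpt1 was at 126 and Cpa3 at 5.41.

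Across the 3276 genes with at least 1 per 10000 in some cluster, the level in cluster 0 ranked most like that in cluster 2 (Spearman's rho 0.85) and cluster 7 (0.84), and less like that in cluster 11 (0.67). These are correlations across genes, which are not independent, and are given as a description. Mitochondrial genes took 3.60% and ribosomal protein genes 16.2% of the RNA of cluster 0, within the ranges of 0.923% to 8.05% and 4.01% to 22.8% over all clusters. Barcodes shared between the 2 libraries were not analysed here.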

How the data were processed

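The authors deposited 1 table of mean expression, 17044 genes by 12 clusters, over 2 libraries. Its unit, read from the values, is mean UMIs per 10000 on a linear scale. The submitters' processing notes name Cell Ranger 3.1.0, Seurat 2.3 and the build mm10. How cells were filtered, doublets treated and clusters drawn is not given in the sources used here. Where 1 cell holds 1 UMI of a gene, 10000 divided by the mean gives a whole number (within a relative 1e-12), the product of the cluster's cells and that cell's UMI total. This gave the number of cells of each cluster and the totals of 2317 of 3082 cells, accepted where at least 2 genes agreed. In cluster 0, 291 totals were read (quartiles 12627 and 21579 UMIs). Approximate UMIs use their harmonic mean of 9570 UMIs per cell. A value of 0 means that no UMI of the gene was counted in the cluster. The level of 3 UMIs was chosen as the floor for low values. The arithmetic was checked on simulated data. Folds were computed in Python 3 with a pseudocount of 0.1 per 10000, for genes with a mean of at least 0.1. The columns pool the libraries, so there is no replicate and no test.

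The cluster, its markers, the 34 gene lists and the motifs were chosen with earlier results of these data known. Genes were named by a rule: the 7 markers, the 25 leading genes farthest above the next cluster, the 15 highest genes outside ribosomal and mitochondrial ones, and the 10 with the lowest fold under the lowest other epithelial cluster (1 to 4, 6 to 9 and 11). Of each list the 5 highest members and the 2 with the lowest fold were added, and all listed transcription factors. Some genes that the rule names are not reported here. Tm9sf2, Smim6, Muc5ac, Tff2, Itln1, Klk1, Egf, Wnt3, Mmp7, Reg3b, Reg3g, Qsox1, Pdia5, Txndc5, Fkbp11, Hsp90b1, Ern2, Ern1, Canx, Pdia6, Dnajc3, Creld2, Syvn1, Chst4, Hgfac, Oit1, Kdelr3, Kdelr2, Lman1, C1galt1c1, B3gnt6, St6gal1, Syt7, Cftr, Car1, Mki67, Top2a, Lgr5, Trp53inp1, Neurod1, Scg2, Fev, Dclk1, Trpm5, Adgre1, C1qc, Cd3e, Trac, Cpa3, Fcer1a, Ms4a2, Gata2, Asph, Smco4, Hnrnpa3, Pan2 and Spats2l were chosen after their values were seen. Promoter windows and gene coordinates are RefSeq's (GRCm38.p6), with the first listed window of a gene.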

Additional observations from a re-analysis of the deposited data

How the results depend on the processing

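With a pseudocount of 1 per 10000, 45 genes led cluster 0, 94 lay 2-fold above and 164 lay 2-fold below the mean of the others, where the reported counts were 69, 274 and 915. A pseudocount of 0.01 gave 1442 below. A threshold of 4-fold gave 36, 75 and 240, and a filter at a mean of 1 gave 22, 84 and 269. Against the median of the other clusters 286 lay below, of which 262 were among the 915. Leaving out cluster 6, cluster 11 or clusters 5 and 10, or rescaling without the 20 highest genes of cluster 0, kept these 3 counts within 1.5 times the reported ones. The members changed more than the counts. Without clusters 5 and 10, 704 lay below, of which 535 were among the 915, and 251 lay above, of which 226 were among the 274. Of 33 list medians, 12 were at least 1 on the log2 scale in either direction, against 5 with a pseudocount of 1, 6 with the median of the others and 6 without clusters 5 and 10. Of 249 genes named by the rule, 78 were 2-fold up, against 50 with a pseudocount of 1. Against the median of the others the tuft, neutrophil, macrophage, T cell and B cell lists changed sign, to 0.10, 0.059, 0.0016, 0.053 and 0.033. So did the genes Nkx2-2 (0.17), S100a9 (1.56) and Hdc (0.13). The antimicrobial, ion transport, p53, cell cycle and stem cell medians, all under 1 in size, also changed sign under at least 1 alternative. The median of all tested genes moved by 0.13 with a pseudocount of 1, by 0.12 with the median of the others and by 0.14 with rescaling.

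The absence of replicates limits every comparison here. Depth limits the low genes: in cluster 11, with 19 cells, 3 UMIs correspond to 0.174 per 10000, and 22 of the 69 leading genes were at or under that level there. In cluster 6 the same limit was 0.0656. No paired analysis was possible because the columns do not separate the 2 libraries.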
